A study of Mus musculus with 5 samples.

Results

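Whole bone marrow (BM) taken 2 days after cyclophosphamide was compared with whole BM of naive mice by scRNA-seq. All barcodes of both libraries with at least 200 genes and under 20% of unique molecular identifiers (UMIs) from mitochondrial genes were kept, which gave 7104 naive and 6126 D2 CTX cells. These 13230 cells were part of 25975 cells that passed the same limits in the 5 libraries of the series. The D2 mice received cyclophosphamide (CTX) into the peritoneum at 150 mg per kg in PBS, and the naive mice were left untreated, with no injection of PBS named for them. The study gives BALB/c as its mouse strain. Each group is 1 library, a pool to which 3 mice gave the same number of cells after dead cells had been depleted. The animals within a pool cannot be separated, so there are 2 groups of 1 library each and no replicate from which an animal to animal spread could be measured. No test was possible for this reason, and every comparison is given as both values with an interval. The labels name the cells BM mononuclear cells and give CD45+ as genotype.

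Cyclophosphamide is a prodrug whose active products attach alkyl groups to DNA and link its strands to each other. Such links block replication, so cells in cycle are hit hardest, and the damage raises the transcription factor p53. In turn p53 switches on genes that stop the cell cycle, such as Cdkn1a, genes that limit p53 itself, such as Mdm2 and Ccng1, and genes that start cell death, such as Bax and Bbc3. Marrow makes blood cells from rare stem and progenitor cells through dividing intermediates. Granulocyte-monocyte progenitors (GMPs) give neutrophils and monocytes, erythroblasts give red cells, and pro-B and large pre-B cells give B cells. Mature neutrophils, resting B cells and T cells in marrow divide little or not at all.

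Promoters of p53 target genes that rose over all cells are shown first. Beside them stand promoters of mitosis genes that fell in the other B lineage-like gate described below. They were chosen among genes whose window holds the short sequences through which p53 and the cell cycle factors are known to act. The matches shown were therefore fixed by this choice. Phlda3 and Zmat3, which had higher log2 ratios than Cdkn1a, did not qualify. The p53 decamer is the shortest stretch bound by a p53 pair, and the CCAAT box and the cell cycle homology region TTTGAA mark many genes of mitosis. The windows are the 250 bases before the RefSeq start of each gene on GRCm38.p6, printed in the direction of the gene, with matches on either strand in capitals. ATTGG and TTCAAA are the reverse complements of CCAAT and TTTGAA. Cdkn1a, the cell cycle inhibitor p21, lies on the plus strand and its window is chr17:29090729-29090978. Ccng1, cyclin G1, lies on the minus strand at chr11:40755287-40755536. Aen, a nuclease induced by p53, lies on the plus strand at chr7:78895808-78896057. Top2a, topoisomerase II alpha, lies on the minus strand at chr11:99024190-99024439. Ckap2l, a spindle protein, lies on the minus strand at chr2:129297213-129297462. In the first 3 sequences the capitals are p53 decamers, and in the last 2 they are CCAAT and TTTGAA.
Cdkn1a: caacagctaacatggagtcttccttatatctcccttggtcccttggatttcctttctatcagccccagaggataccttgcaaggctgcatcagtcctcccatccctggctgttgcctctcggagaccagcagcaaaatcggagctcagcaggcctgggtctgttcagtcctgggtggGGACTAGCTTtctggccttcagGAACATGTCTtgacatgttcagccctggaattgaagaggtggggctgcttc
Ccng1: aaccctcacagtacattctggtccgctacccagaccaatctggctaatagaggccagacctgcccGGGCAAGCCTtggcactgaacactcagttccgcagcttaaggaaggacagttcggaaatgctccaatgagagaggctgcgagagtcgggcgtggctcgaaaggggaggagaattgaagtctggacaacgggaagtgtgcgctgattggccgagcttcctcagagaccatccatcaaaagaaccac
Aen: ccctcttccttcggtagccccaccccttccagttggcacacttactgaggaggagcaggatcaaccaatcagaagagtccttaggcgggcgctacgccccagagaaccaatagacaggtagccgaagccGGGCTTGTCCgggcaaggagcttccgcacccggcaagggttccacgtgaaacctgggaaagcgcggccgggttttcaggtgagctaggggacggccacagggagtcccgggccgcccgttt
Top2a: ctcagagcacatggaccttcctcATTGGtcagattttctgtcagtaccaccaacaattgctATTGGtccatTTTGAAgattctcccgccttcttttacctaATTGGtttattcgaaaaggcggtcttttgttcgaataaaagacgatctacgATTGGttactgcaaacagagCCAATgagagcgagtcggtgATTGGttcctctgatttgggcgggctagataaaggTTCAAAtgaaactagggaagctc
Ckap2l: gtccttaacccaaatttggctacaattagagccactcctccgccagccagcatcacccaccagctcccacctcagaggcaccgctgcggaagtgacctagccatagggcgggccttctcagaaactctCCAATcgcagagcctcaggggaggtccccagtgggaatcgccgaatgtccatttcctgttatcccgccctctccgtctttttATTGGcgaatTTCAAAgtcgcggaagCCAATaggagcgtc
Cdkn1a held its matches 73 to 64 and 51 to 42 bases before the start. In Top2a 6 CCAAT and 2 TTTGAA matches were found. Of 30 p53 target genes 22 had a RefSeq window, and 8 of these (36.4%) held a decamer. Over all 27025 genes with a window the share was 8.20%. A gene with several windows counted where any of them held the match. Among the 12 targets that rose over all cells, 5 of 10 genes with a window held a decamer (50.0%). Of 32 mitosis genes 27 had a window, and 23 of these (85.2%) held CCAAT. The share was 37.5% of all genes with a window, 59.1% of such p53 targets and 59.4% of such DNA replication genes. TTTGAA stood in 11 of the 27 (40.7%, against 18.3%), and both stood in 10 of the 27 (37.0%, against 6.45%). The lists were made of genes already known for these roles, so the shares are not support drawn from these data. A match gives the letters only, and binding was not measured here.

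The 2 libraries were close in size. The naive library held 7649 barcodes and 46065849 UMIs in kept cells, with a median of 3953.5 UMIs and 1311 genes per cell. The D2 library held 6608 barcodes and 33940059 UMIs, with medians of 3033.5 UMIs and 1224 genes. Mitochondrial UMIs had medians of 3.03% and 3.74%. Only 6 kept barcodes occurred in both libraries. Neutrophil-like cells, which are not mononuclear, made up 42.1% of naive and 44.6% of D2 cells, so the labelled cell type does not describe all cells. Levels are given as UMIs scaled to a total of 1000000 per library or gate (CPM). Ptprc, which encodes CD45, was at 1371 CPM in the naive T cell-like gate and at 23.1 CPM in the naive erythroid-like gate.

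Expression was first compared as the sum of UMIs of each gene over all kept cells of a library, in CPM. In such a sum, fewer cells of a type and less RNA per cell cannot be told apart. A total of 6221 genes had at least 200 UMIs over both libraries and 20 CPM in 1 of them. A gene is said to rise or fall where its log2 ratio of D2 to naive was at least 1 in size, and intervals are exact 95% intervals that cover counting error only. By this rule 358 genes rose (5.75%) and 214 fell (3.44%), so 62.6% of the genes past the limit were higher. The median log2 ratio over all genes compared was 0.17. Where 2 levels are given for a gene, the first is naive and the second D2. When libraries were scaled by the median of gene ratios, which sets this median to 0, the share of higher genes was 41.9%, and when each cell was given the same weight it was 51.1%.

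Genes induced by p53 stood at the top of the marrow at D2. Of 30 p53 target genes 16 were abundant enough to compare, 12 of them rose, none fell, and the median log2 ratio was 1.47. Phlda3, Zmat3, Bbc3 and Cdkn1a reached 20 CPM in the D2 library only, and the 14 targets not compared are left out. The count and the median therefore depend in part on this filter, which was also used within gates. Summed over all 30 genes the level was 746 and 1733 CPM. Phlda3, which restrains the kinase AKT, went from 1.56 to 40.0 CPM and had the highest log2 ratio of all genes compared outside the immunoglobulin genes, at 4.68 (4.33 to 5.04). Zmat3, an RNA-binding protein, went from 2.15 to 27.4 CPM. Cdkn1a went from 14.8 to 159 CPM, a log2 ratio of 3.42 (3.31 to 3.54), and Ccng1 from 29.1 to 209 CPM, a ratio of 2.84 (2.76 to 2.93). Genes of arrest and genes of cell death were both among those that rose. The death activator Bbc3, also named PUMA, was at 6.10 CPM in naive and 30.0 CPM in D2 marrow and Bax at 82.5 and 225 CPM. The stress sensor Sesn2, the nuclease Aen, Trp53inp1, Ei24, Dcxr and Psrc1 rose by log2 ratios between 1.14 and 1.87. Mdm2, the ubiquitin ligase that degrades p53, was at 48.7 and 95.8 CPM, just inside the limit at 0.97. Btg2, Xpc and Rrm2b had log2 ratios of 0.34, 0.23 and 0.21.

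The other genes among the 10 highest were of mixed kinds. The stefin BC117090 had a log2 ratio of 3.54, the predicted gene Gm10076 3.19, the glutathione transferase Gstp1 2.83, cyclin D1 (Ccnd1) 2.82, the serpin Serpina3g 2.60 and the progenitor surface protein Cd34 2.52. Among the 10 lowest, Rhd of the Rhesus complex went from 119 to 6.54 CPM, a log2 ratio of -4.18 (-4.38 to -3.99). The others were Asb17os at -4.29, Cd59a at -4.14, Sptb at -4.05, Btnl10 at -3.93, Mgst3 at -3.61, Dmtn and Sox6 at -3.57, Cldn13 at -3.55 and Kel at -3.50. Rhd, Sptb, Dmtn, Sox6 and Kel are red cell genes. Immunoglobulin genes were listed apart, since single plasma cells can hold most of their UMIs. For Ighg2c, which went from 53.9 to 0.412 CPM, 1 cell held 99.8% of the naive UMIs, and for Ighg1 1 cell held 98.4% of the D2 UMIs.

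All 23 erythroid genes fell, with a median log2 ratio of -2.52. The globin Hbb-bs went from 10930 to 1740 CPM and Hba-a1 from 5175 to 590 CPM. The master regulator Klf1 went from 69.1 to 10.2 CPM and the erythropoietin receptor (Epor) from 21.3 to 4.74 CPM. The transferrin receptor Tfrc, which dividing cells of other lineages also carry, went from 143 to 46.7 CPM. Red cell lysis is described for the BM suspensions of the study, so these values describe the nucleated erythroid cells and any red cells that remained.

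Genes of DNA synthesis fell as a group. Of 35 DNA replication genes compared 17 fell, none rose, and the median log2 ratio was -0.99. Ccne1, the cyclin that opens S phase, went from 56.6 to 11.6 CPM, Rrm2, which makes DNA building blocks, from 232 to 60.2 CPM, and Pcna, the polymerase clamp, from 155 to 65.7 CPM. All 32 mitosis genes had ratios below 0, but only 5 passed the limit, and their median was -0.78. Mki67, the common marker of cycling cells, went from 622 to 261 CPM and Top2a from 479 to 279 CPM. Replication-dependent histone genes, which are transcribed in S phase, had a median of -1.74 with 11 of 14 lower, and Hist1h1b went from 408 to 85.4 CPM. Hist1h2ap was the single histone gene that rose, from 48.4 to 189 CPM. It has near-identical copies in the histone cluster. Of 13 crosslink repair and checkpoint genes compared 1 fell, Uhrf1, which went from 122 to 49.5 CPM, and none rose.

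**Figure D1:**
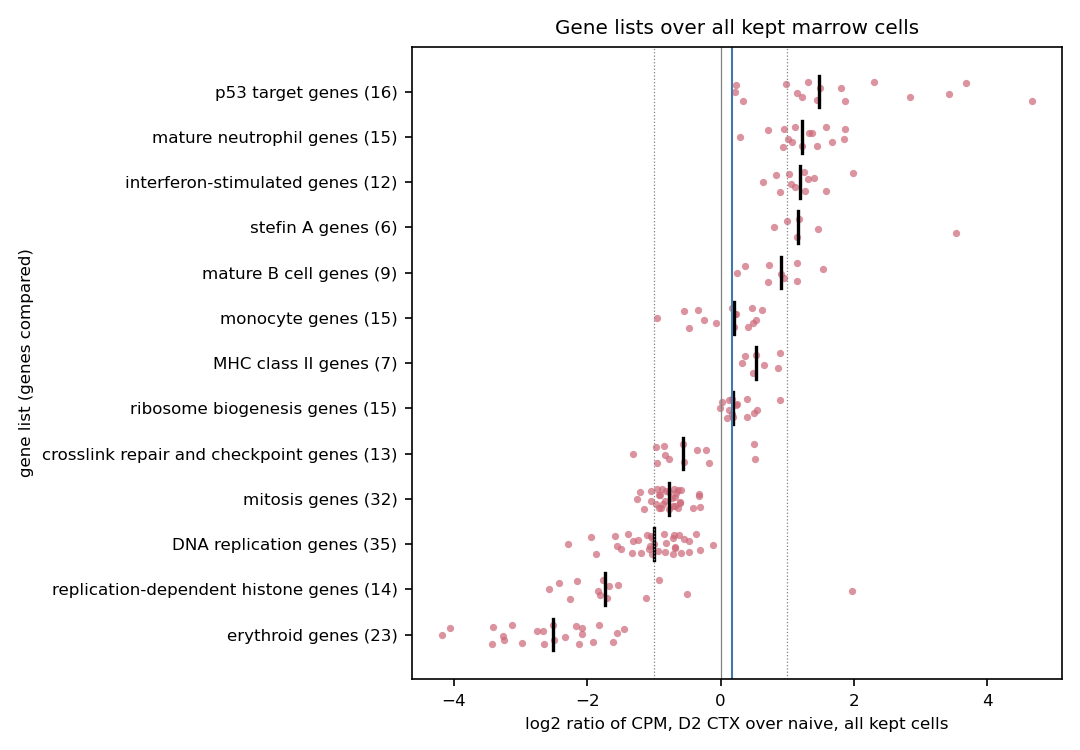
Log2 ratio of D2 CTX to naive CPM over all kept cells (x axis) for each compared member of 13 of the gene lists (y axis). Each point is 1 gene, black bars are list medians, the blue line is the median of all genes compared (0.17) and dotted lines mark a log2 ratio of 1 in either direction. All 23 erythroid genes lie left of the lower line, and 12 of 16 p53 target genes lie right of the upper one.

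Among the lists of myeloid cells, mature neutrophil genes took a higher share of the marrow RNA, with a summed level of 1529 and 3014 CPM. Of 15 mature neutrophil genes 11 rose, none fell, and the median log2 ratio was 1.22. The inflammatory cytokine Il1b went from 53.6 to 171 CPM, the chemokine receptor Cxcr2, by which neutrophils leave the marrow, from 102 to 263 CPM, and the G-CSF receptor Csf3r from 86.4 to 215 CPM. The azurophil granule genes, which are made in the youngest neutrophil precursors, did not move as a group. Elane, neutrophil elastase, went from 901 to 364 CPM, while Mpo, myeloperoxidase, was at 375 and 602 CPM and Ctsg at 199 and 193 CPM. Of 18 specific and gelatinase granule genes, made later, 4 rose, while their summed level was 48873 and 42320 CPM. None of 15 monocyte genes passed the limit, their median was 0.21 and their sum was 1704 and 1773 CPM. Of 12 interferon-stimulated genes 9 rose with a median of 1.18. Rsad2, an antiviral enzyme, went from 10.7 to 42.2 CPM and Isg15 from 24.4 to 58.6 CPM. Macrophage and iron recycling genes summed to 4988 and 5069 CPM. Of 9 compared 4 rose, among them the complement gene C1qa (7.01 and 26.3 CPM), the heme oxygenase Hmox1 (22.3 and 80.9 CPM) and the adhesion molecule Vcam1 (21.1 and 49.6 CPM). Of 10 plasmacytoid dendritic cell genes 4 rose, and Siglech was at 48.4 and 136 CPM.

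Of 6 surrogate light chain and pro-B genes compared 2 fell and none rose. Igll1 and Vpreb1, the surrogate light chain of pro-B and large pre-B cells, went from 113 to 45.5 CPM and from 139 to 58.8 CPM. The B cell antigen Ms4a1 (CD20) went from 62.7 to 246 CPM, and 3 of 9 mature B cell genes rose, among them Fcer2a with a log2 ratio of 1.53. Of 14 B cell genes 2 rose and none fell. The T cell genes Cd3g and Trbc2 had log2 ratios of 1.10 and 1.08, the only members past the limit of 6 compared. Of 9 stem and progenitor genes 3 rose, which were Cd34 (6.92 and 39.8 CPM), Angpt1 (8.27 and 26.6 CPM) and Meis1 (8.99 and 23.9 CPM). Kit, the stem cell factor receptor, was at 12.4 and 23.3 CPM, a log2 ratio of 0.91.

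The remaining lists are given by their counts. Of 20 immediate early genes 5 rose, and Egr1 went from 70.7 to 184 CPM. Of 10 heat shock chaperone genes 2 rose, Hsph1 and Hspa5, and of 15 ribosome biogenesis genes none passed the limit. In the BCL2 family of 9, Bbc3, Bax and the survival gene Bcl2 rose, and Bcl2 went from 24.9 to 106 CPM. Of 14 aldehyde dehydrogenase and glutathione transferase genes, the enzyme families that inactivate cyclophosphamide products, 1 rose (Gstp1) and 3 fell, which were Mgst3 (144 and 11.8 CPM), Aldh1a1 (25.8 and 6.60 CPM) and Gstm5 (39.2 and 10.7 CPM). Of 15 glycolysis genes 1 rose, of 5 plasma cell genes 2, of 4 natural killer cell genes 1, of 2 megakaryocyte and platelet genes 1, and of 6 stefin A genes 5. None of 7 MHC class II genes passed the limit. Of 5 basophil, mast cell and eosinophil genes Hdc rose and Prss34 fell. Cxcl12, a niche chemokine, was the only stromal gene compared, at 12.3 and 60.2 CPM.

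To see which cells carried these values, each cell was placed in 1 of 17 gates by how many of 5 to 9 marker genes it held. The gates are called "-like" because they rest on RNA of a few genes. The genes of each gate were ranked by fold over all other cells. The head of the GMP-like gate included Elane, Prtn3 and Mpo, and that of the monocyte-like gate Fn1, Ms4a6c and F13a1. All of these are markers of their gate, so the gating itself put them there and they cannot support its name. The head of the other B lineage-like gate was made up mostly of genes outside its marker list, such as Arl5c, Atp1b1 and Rhoh. Shares are of recovered live cells and are not cell numbers per mouse. Since a gate needs markers to be seen, shares were also taken with each cell thinned to 1000 UMIs, which left out 285 naive and 599 D2 cells.

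The erythroid-like share had the lowest ratio of D2 to naive among the gates, at 0.140, and went from 6.42% (5.86 to 7.01) to 0.898% (0.677 to 1.17), which is 456 and 55 cells. The thinned shares were 4.34% and 0.380%. GMP-like cells went from 2.87% to 0.931%, a ratio of 0.324 (0.237 to 0.437), and pro-B and large pre-B-like cells from 7.56% to 2.37%, a ratio of 0.313 (0.259 to 0.377). Monocyte-like cells went from 8.25% (7.62 to 8.91) to 4.13% (3.65 to 4.66). Within the neutrophil gates cells shifted toward the mature gate, while the total of these gates was 42.1% and 44.6%. Neutrophil precursor-like cells, which hold granule genes and markers of the cycle, went from 6.35% to 3.28%, immature neutrophil-like cells from 17.1% to 7.35% and mature neutrophil-like cells from 18.7% to 34.0%. Mature cells were thus 44.4% (42.6 to 46.2) of the naive and 76.2% (74.5 to 77.8) of the D2 neutrophil gates. Thinning brought the immature shares to 30.8% and 25.5% and the mature shares to 9.94% and 17.0%, so the size of this shift depended on depth. Mature neutrophil genes also summed to 525 and 1240 CPM in other B lineage-like cells, which should lack most of them. In pro-B and large pre-B-like cells the sums were 247 and 812 CPM. The part of free RNA in the shift between neutrophil gates was not tested.

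The B lineage as a whole held 29.2% of naive and 29.1% of D2 cells. Within it the young gate lost share, as given above, the mature B-like gate went from 7.12% to 15.8%, a ratio of 2.21 (1.99 to 2.47), and the cells between them, called other B lineage-like, went from 14.5% to 11.0%. T cell-like cells went from 2.18% to 5.78%, NK cell-like cells from 1.28% to 1.91%, plasmacytoid dendritic cell-like cells from 2.04% to 3.31% and macrophage-like cells from 1.11% to 2.58%. Basophil-like cells were at 1.06% and 0.898%, with overlapping intervals. Plasma cell-like cells numbered 32 and 42 and megakaryocyte-like cells 14 and 18. A set of 139 naive and 185 D2 cells met no gate. Stem and progenitor-like cells went from 0.859% to 1.81%, a ratio of 2.11 (1.53 to 2.93), but only 9 and 14 cells remained in the gate after thinning to 1000 UMIs. At 500 UMIs 5 naive and 2 D2 cells remained, with the D2 share lower, so the direction of this difference depended on the depth used.

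**Figure D2:**
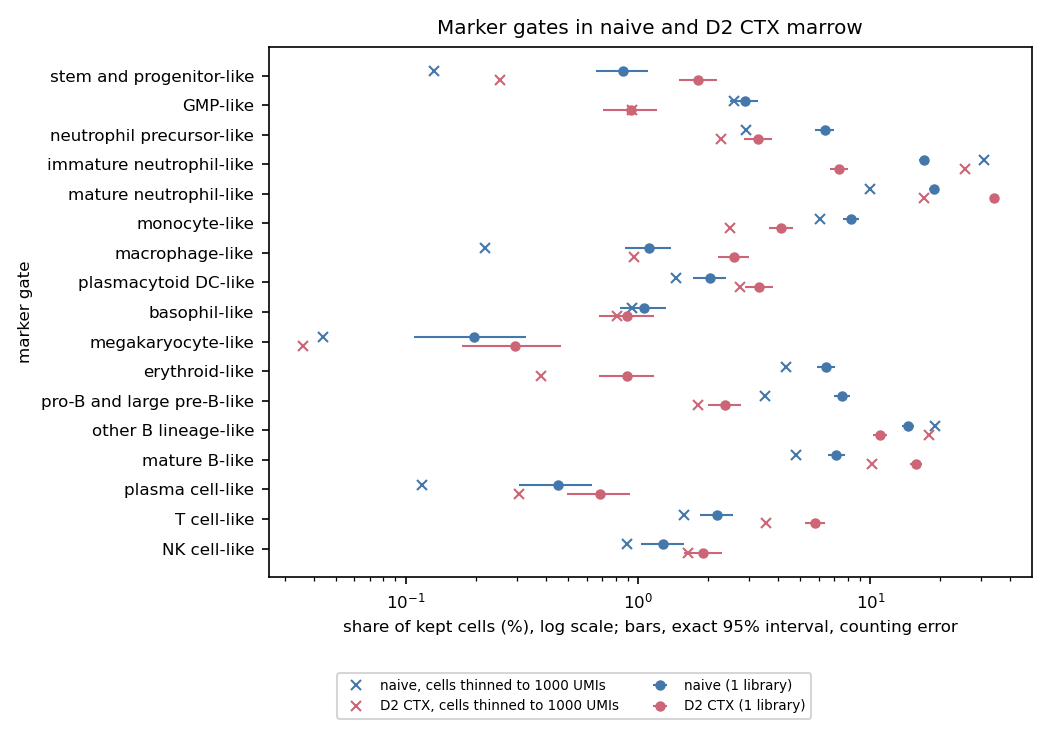
Share of kept cells in each marker gate, in percent on a log axis (x axis), for naive and D2 CTX marrow by gate (y axis). Points have exact 95% intervals as bars, and crosses are the shares after thinning each cell to 1000 UMIs. The erythroid-like, GMP-like and pro-B and large pre-B-like gates lie lower at D2, and the mature neutrophil-like, mature B-like and T cell-like gates lie higher.

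The progenitors that were left at D2 yielded many more UMIs per cell. The median cell of the stem and progenitor-like gate held 9363 UMIs in naive and 26392 in D2 marrow, a ratio of 2.82. The GMP-like median went from 11573 to 32014 UMIs, and the megakaryocyte-like median was 2.61 times the naive one. Monocyte-like and plasma cell-like cells had ratios of 1.46 and neutrophil precursor-like cells 1.27. The other gates lay between 0.543, in pro-B and large pre-B-like cells, and 1.13. The stem and progenitor-like gate supplied 1.64% of naive but 9.20% of D2 UMIs, so these cells weigh more in every D2 sum over all cells. More of the D2 progenitors also held markers of other lineages. Of 57 D2 GMP-like cells 40 met more than 1 gate, as did 46 of 111 D2 stem and progenitor-like cells, against 44 of 204 and 11 of 61 in naive marrow. Doublets were kept. The cells with the highest Scrublet scores, taken at the rate expected from the number of cells (5.69% of naive and 4.90% of D2 cells), were left out in an alternative. The part of doublets in the depth of the progenitor gates was not tested.

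**Figure D3:**
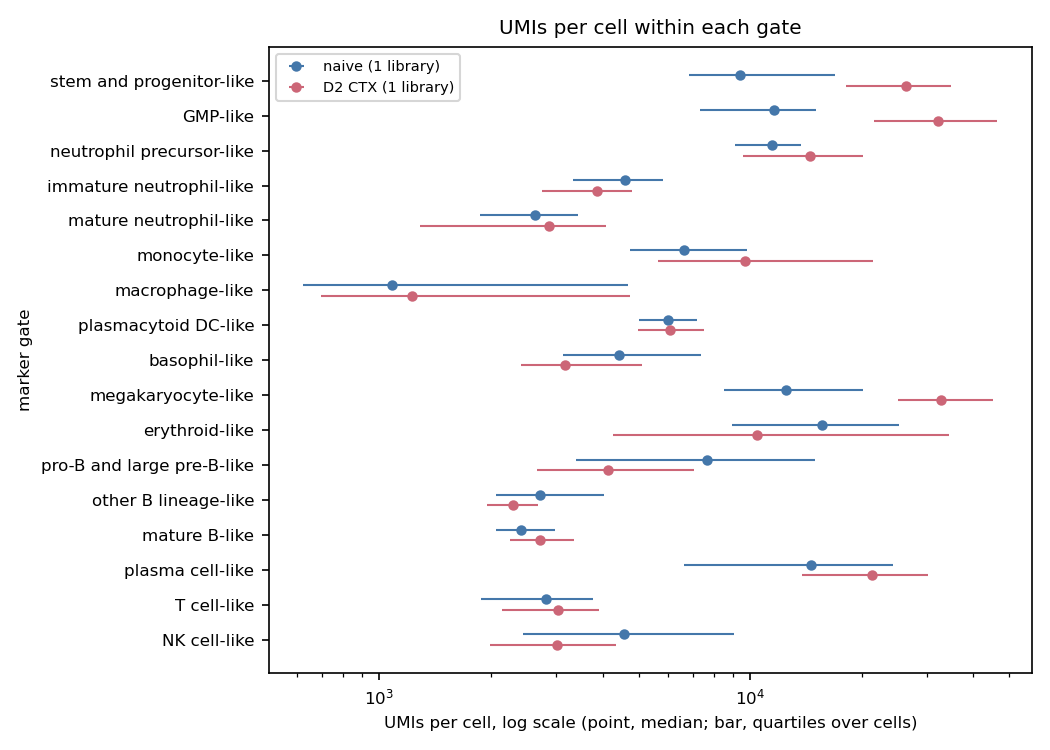
UMIs per cell on a log axis by marker gate for naive and D2 CTX marrow, with the median as point and the quartiles as bars. The medians of the stem and progenitor-like, GMP-like and megakaryocyte-like gates lie more than 2.6 times higher at D2, and that of the pro-B and large pre-B-like gate lies lower.

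Cells in cycle were a smaller share at D2, and the lineages among them differed. A cell with at least 3 of 9 markers of the cycle was counted as cycling, which held for 26.9% (25.9 to 28.0) of naive and 10.7% (9.95 to 11.5) of D2 cells. Cells of the B lineage gates were 30.0% of the naive cycling cells and 6.40% of the D2 ones, and erythroid-like cells were 21.9% and 6.10%. The neutrophil gates went from 23.9% to 30.6% of cycling cells, and the progenitor and GMP gates together from 8.10% to 22.6%. Within pro-B and large pre-B-like cells the cycling share was 62.8% in naive and 15.9% in D2 marrow, although Mki67 is among the markers of that gate. In other B lineage-like cells it was 22.0% and 1.63%, in NK cell-like cells 27.5% and 9.40%, and in erythroid-like cells 91.9% and 72.7%. The progenitor gates and the monocyte-like gate differed the other way. The cycling share was 36.1% and 82.9% in stem and progenitor-like cells, 65.2% and 98.3% in GMP-like cells and 31.1% and 45.1% in monocyte-like cells.

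Because deeper cells show more markers, cycling was also read with each cell thinned to 2000 UMIs, an alternative chosen after seeing the data that left out 1153 naive and 1544 D2 cells. The shares in the same 3 gates were then 25.0% and 48.7%, 26.7% and 56.1%, and 19.2% and 36.7%. For pro-B and large pre-B-like cells they were 50.7% and 10.6%, for other B lineage-like cells 24.1% and 1.85% and for erythroid-like cells 84.4% and 58.7%. The direction in each of these 6 gates was that of the unthinned cells. Mature B-like cells, which are resting, were called cycling in 1.98% of naive and 0.828% of D2 cells. Their D2 median was 2707.5 UMIs, and 23 of 966 met more than 1 gate. The D2 medians of stem and progenitor-like and GMP-like cells were 26392 and 32014 UMIs. Mature B-like cells thus do not measure what free RNA and doublets can give in those gates, and this part was not tested.

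**Figure D4:**
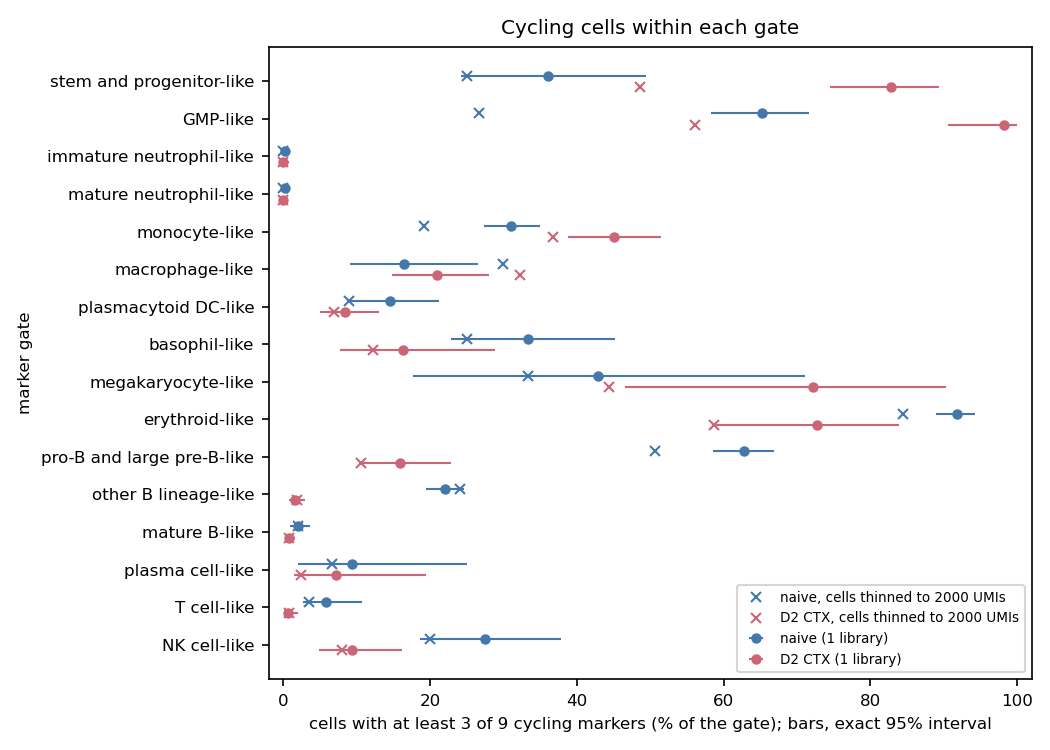
Share of cells with at least 3 of 9 markers of the cycle, in percent (x axis), by marker gate (y axis) for naive and D2 CTX marrow. Points have exact 95% intervals as bars, crosses are cells thinned to 2000 UMIs, and the neutrophil precursor-like gate, which requires the markers, is not drawn. The shares in stem and progenitor-like, GMP-like and monocyte-like cells lie higher at D2, and those in the B lineage and erythroid-like gates lie lower.

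Values over all cells were then set against the mix of gates. With the naive levels of each gate and the D2 shares of UMIs, the median log2 ratio of the p53 list was 0.10, and with the D2 levels and the naive shares it was 1.56. The erythroid list had -1.59 by the mix and -1.05 by the levels, DNA replication -0.78 and -0.57, mitosis -0.64 and -0.59, and the histones -0.39 and -1.63. The mature neutrophil list had 0.66 and 0.82. Of the 358 genes that rose the mix alone gave a log2 ratio of at least 1 for 35 and the levels alone for 154, and of the 214 that fell these were 87 and 99.

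The leading p53 targets were higher in nearly every gate. The part of free RNA from other cells in these values was not tested. Cdkn1a had at least 20 UMIs in 16 gates, and its interval lay above 0 in all 16. The same held for Ccng1 in 16 of 17 gates, Phlda3 in 13 of 13, Zmat3 in 10 of 10, Bax and Trp53inp1 in 15 of 17, Ei24 in 14 of 16, Mdm2 in 13 of 17, Sesn2 in 11 of 13, Bbc3 in 12 of 15 and Aen in 11 of 12. The other members were less even. Dcxr had intervals above 0 in 9 of 14 gates and Rrm2b in 3 of 15, with none below 0. Btg2 had intervals above 0 in 8 and below 0 in 3 of 17 gates, Xpc in 7 and 2 of 15, and Psrc1 in 8 and 2 of 11. The summed level of the 30 genes was highest at D2 in basophil-like cells, at 877 CPM in naive and 3426 CPM in D2 cells, followed by other B lineage-like cells at 1719 and 2542 CPM and monocyte-like cells at 804 and 2409 CPM. GMP-like cells had 445 and 1743 CPM, erythroid-like cells 508 and 1867 CPM and neutrophil precursor-like cells 353 and 1476 CPM. In 7 gates the summed log2 ratio was below 1. It was 0.30 in mature neutrophil-like cells, at 1117 and 1374 CPM, and 0.84 in immature neutrophil-like cells, at 517 and 927 CPM. In mature B-like and T cell-like cells it was 0.76 and 0.72, in other B lineage-like cells 0.56 and in pro-B and large pre-B-like cells 0.92. Other B lineage-like cells, of which 22.0% were cycling in naive marrow, thus had a lower ratio than mature B-like cells. In plasma cell-like cells the summed log2 ratio was -0.10 (-0.29 to 0.10).

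**Figure D5:**
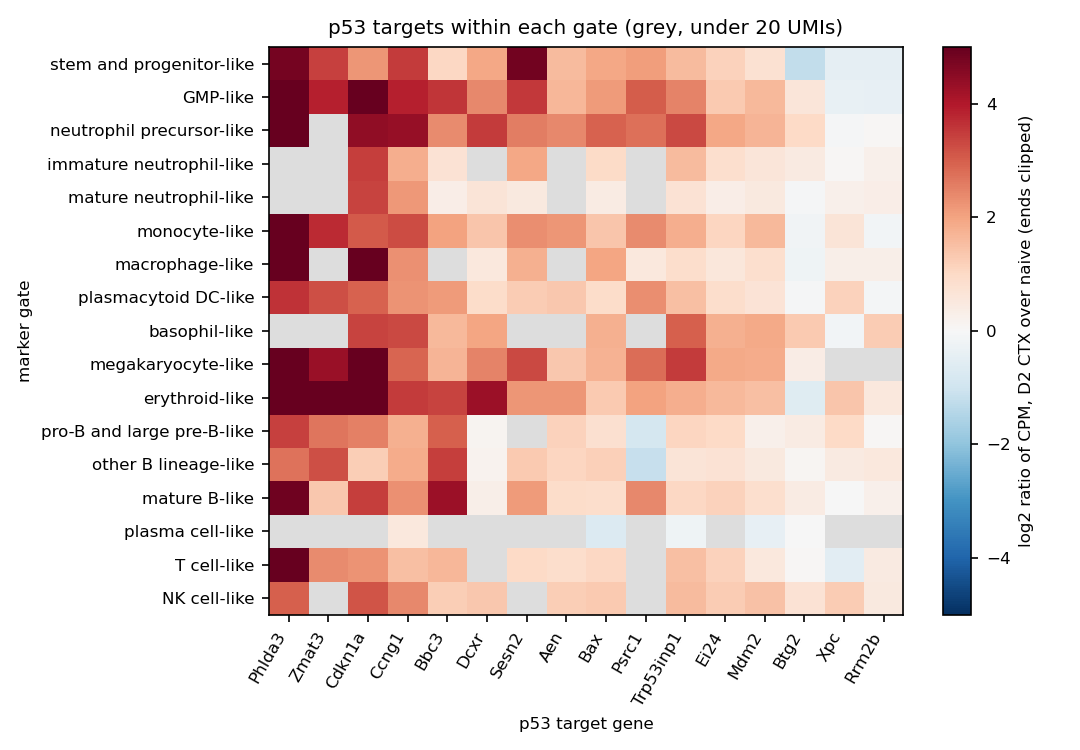
Log2 ratio of D2 CTX to naive CPM (color) for the p53 target genes (columns) in each marker gate (rows). Grey fields had under 20 UMIs over both libraries, and genes with 0 naive UMIs are drawn at the end of the scale. Cdkn1a, Ccng1, Phlda3 and Zmat3 are higher in nearly all gates with a value, and Btg2, Xpc and Psrc1 are lower in some.

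In stem and progenitor-like cells, 59 of 3020 genes compared rose (1.95%) and 22 fell (0.728%). Of 12 p53 target genes 9 rose and Btg2 fell, from 184 to 77.5 CPM. Phlda3 went from 2.65 to 72.4 CPM on 2 naive UMIs, Zmat3 from 6.61 to 70.5 CPM, Ccng1 from 23.8 to 268 CPM, and Cdkn1a from 43.6 to 202 CPM. Stem and progenitor genes outside the gate markers did not pass the limit, and Myb was at 400 and 371 CPM and Cdk6 at 595 and 561 CPM. Mitosis genes had a median of 0.55 and DNA replication genes of 0.36. Of the lowest genes, Dntt, an early lymphoid enzyme, went from 295 to 90.3 CPM and the immediate early gene Ier3 from 194 to 58.0 CPM. Mpo went from 537 to 1191 CPM. Apoe and the neutrophil gene Retnlg had log2 ratios of -1.42 and -1.44, but Retnlg turned to 2.11 when cells that met more than 1 gate were left out.

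In GMP-like cells 165 of 2517 genes rose (6.56%) and 37 fell (1.47%). Cdkn1a went from 3.70 to 194 CPM, a log2 ratio of 5.71 (4.77 to 6.85), Ccng1 from 21.8 to 323 CPM and Bax from 104 to 460 CPM. Of 9 heat shock chaperone genes 5 rose, and Hsph1 went from 11.9 to 86.2 CPM. Of 5 monocyte genes compared 3 rose, among them Irf8, the factor that turns GMPs toward monocytes, at 82.2 and 226 CPM. S100a9, an abundant neutrophil protein, fell from 49196 to 14843 CPM. The median GMP-like cell held 11573 UMIs in naive and 32014 in D2 marrow, and the part of free RNA in this fall was not tested. The eosinophil gene Prg2 (122 and 1.49 CPM) and the plasma cell gene Jchain (6.17 and 145 CPM) were among the lowest and highest, but both turned when cells that met more than 1 gate were left out, to log2 ratios of 1.95 and -0.16.

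In neutrophil precursor-like cells 256 of 3350 genes rose (7.64%) and 53 fell (1.58%). Ifi27l2a, an interferon-induced mitochondrial protein, went from 12.3 to 852 CPM, the highest log2 ratio of the gate at 6.11 (5.75 to 6.49). Cdkn1a (10.6 and 226 CPM), Ccng1 (14.9 and 307 CPM) and Bax (34.5 and 269 CPM) rose as well. Mmp9, a gelatinase granule protease of later neutrophils, went from 60.4 to 459 CPM, Adam8 from 8.82 to 77.1 CPM and Thbs1 from 14.5 to 148 CPM. Cells that should lack Mmp9 had a higher level of it as well, at 26.1 and 196 CPM in pro-B and large pre-B-like and 45.6 and 183 CPM in T cell-like cells, so no change in the precursors is read from it. Of 9 histone genes 8 fell, with Hist1h1e at 337 and 82.0 CPM and Hist2h2ac at 75.3 and 13.6 CPM, whereas Mki67, one of the markers, was at 481 and 598 CPM. Of 26 DNA replication genes 3 fell, among them Rrm2 (232 and 96.3 CPM), and none of 22 mitosis genes passed the limit.

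Later neutrophils no longer divide. In immature neutrophil-like cells 299 of 2936 genes rose (10.2%) and 68 fell (2.32%), and in mature neutrophil-like cells 89 of 3592 rose (2.48%) and 12 fell (0.334%). Ccng1 went from 17.3 to 78.6 CPM in mature cells and Cdkn1a from 2.89 to 30.2 CPM, while Bax was at 16.3 and 21.4 CPM. Over all cells Ccng1 was at 29.1 and 209 CPM and Cdkn1a at 14.8 and 159 CPM. Whether free RNA gave the values in mature neutrophil-like cells was not tested. Of the interferon-stimulated genes, 2 of 3 rose in immature and 3 of 7 in mature cells. Ifitm1 went from 8.81 to 110 CPM and Oas3 from 29.9 to 125 CPM in immature cells, and Rsad2 from 43.6 to 145 CPM and Ifit1 from 11.8 to 55.2 CPM in mature cells. The 4 azurophil granule genes compared fell in each gate, and Elane went from 124 to 8.82 CPM in mature neutrophil-like cells. Mature B-like cells, which should lack Elane, had 134 and 5.71 CPM of it, a difference of like size, so no change in neutrophils is read from it. Stefin A genes also differed in both kinds of gate, with summed levels of 807 and 2135 CPM in immature neutrophil-like and of 72.6 and 461 CPM in mature B-like cells.

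In monocyte-like cells 224 of 5445 genes rose (4.11%) and 97 fell (1.78%). Of the 586 naive and 253 D2 cells of this gate, 27 and 31 met more than 1 gate. The upper quartile of UMIs per cell was 9796 and 21388, so deep cells weigh more in the D2 sums. Whether the mix of cells within the gate changed was not tested. Of 14 p53 target genes 12 rose, with Phlda3 from 1.94 to 96.7 CPM, Cdkn1a from 53.6 to 447 CPM and Ccng1 from 36.8 to 349 CPM. The highest of the other genes were Vcan, a matrix proteoglycan, at 5.81 and 115 CPM, Hebp2 at 5.17 and 90.6 CPM and Ccnd1 at 7.10 and 113 CPM. All 4 stem and progenitor genes compared rose, which were Cd34 (11.4 and 69.0 CPM), Myb (25.0 and 93.1 CPM), Cdk6 (40.5 and 182 CPM) and Sox4 (22.2 and 65.5 CPM). Of 6 azurophil granule genes 4 rose, and Ms4a3, a mark of GMP descent, went from 14.8 to 121 CPM. Of 9 monocyte genes compared 2 fell, which were Ly6c2 (1168 and 465 CPM) and S100a4 (1251 and 463 CPM), and none rose. Of 10 heat shock chaperone genes 7 rose and of 13 ribosome biogenesis genes 8, among them Ncl, which builds the nucleolus, at 293 and 632 CPM. Of 10 histone genes 8 fell while 30 mitosis genes had a median of 0.48. Mgmt, which removes alkyl groups from guanine, went from 4.74 to 51.9 CPM here, from 19.3 to 90.7 CPM in GMP-like cells and from 31.8 to 73.4 CPM in stem and progenitor-like cells.

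In plasmacytoid dendritic cell-like cells 41 of 2078 genes rose (1.97%) and 9 fell (0.433%). Ccng1 went from 42.1 to 201 CPM, and Ly6d, a gene of lymphoid origin, fell from 1851 to 775 CPM. Mmp9 at 13.3 and 153 CPM is a neutrophil gene that this cell type should lack. In basophil-like cells 31 of 515 genes rose (6.02%) and 11 fell (2.14%). Of 14 immediate early genes 8 rose, with Egr1 from 470 to 2464 CPM, Fosb from 189 to 1232 CPM and Fos from 283 to 1213 CPM, and Cdkn1a went from 74.0 to 761 CPM. In macrophage-like cells, whose UMIs were few, 22 of 581 genes rose (3.79%) and 2 fell (0.344%). Cxcl12 went from 1 to 333 UMIs there, and mature neutrophil-like cells, which should lack it, had 6.04 and 37.9 CPM of Cxcl12. Of 7 heat shock chaperone genes 4 rose in macrophage-like cells. The same cells held 114722 and 66396 CPM of the neutrophil gene S100a9, so much of their RNA was that of neutrophils in both libraries.

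In erythroid-like cells 435 of 5046 genes rose (8.62%) and 374 fell (7.41%). Of the 456 naive and 55 D2 cells of this gate, 37 and 13 met more than 1 gate. Of 14 erythroid genes compared outside the gate markers 8 fell in the 55 D2 cells and none rose. Hbb-bs went from 54656 to 20520 CPM, the spectrin Sptb from 280 to 61.2 CPM and Tfrc from 571 to 187 CPM. Of 4 stem and progenitor genes compared 3 rose. Kit went from 25.6 to 72.6 CPM and Myb from 88.3 to 445 CPM, whereas Gata1 was at 148 and 119 CPM. Cdkn1a went from 2.38 to 266 CPM, a log2 ratio of 6.81 (6.16 to 7.53). Of 10 heat shock chaperone genes 9 rose, with Hspa8 at 970 and 3419 CPM, and of 10 immediate early genes 7, with Egr1 at 9.76 and 161 CPM. Of 10 glycolysis genes 6 rose and of 15 ribosome biogenesis genes 6. Of 38 DNA replication genes 13 fell, of 32 mitosis genes 8 and of 17 histone genes 13. Cxcl12 went from 1 to 203 UMIs.

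In pro-B and large pre-B-like cells 332 of 4695 genes rose (7.07%) and 252 fell (5.37%). Of 31 mitosis genes 29 fell and the median log2 ratio was -1.80, with Ccnb1, the cyclin that drives mitosis, at 126 and 18.6 CPM and Plk1 at 80.1 and 18.6 CPM. DNA replication genes had a median of -0.71, and 7 of 37 fell. Hist1h1b went from 855 to 117 CPM. Of 5 surrogate light chain and pro-B genes compared outside the gate markers 3 rose and 1 fell, and their summed level was 747 and 783 CPM. The recombinase genes Rag1 (80.1 and 256 CPM) and Rag2 (32.4 and 90.0 CPM) and Arpp21 rose, and Bach2, a transcription factor of B cells, fell from 248 to 73.3 CPM. Myl10 went from 22.4 to 402 CPM, the highest log2 ratio of the gate at 4.17, and Nrgn from 385 to 31.6 CPM. Granule genes of neutrophils, which B cells lack, rose in the same gate, 12 of 14 compared, with sums of 5831 and 9816 CPM. Of 5 MHC class II genes 4 fell, and H2-Aa was at 89.7 and 12.1 CPM. Gbp7, a guanylate-binding protein induced by interferon, went from 18.3 to 212 CPM. Cdkn1a went from 25.8 to 148 CPM and Ccng1 from 32.4 to 110 CPM.

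The other B lineage-like cells had the lowest median of mitosis genes among the gates in which members could be compared. Here 238 of 4348 genes rose (5.47%) and 279 fell (6.42%). All 27 mitosis genes compared fell with a median log2 ratio of -3.19, and their summed level went from 5798 to 735 CPM. Top2a went from 827 to 57.9 CPM, Cenpf from 370 to 18.2 CPM and Pbk from 90.9 to 4.29 CPM. Of 22 DNA replication genes 20 fell, with Rrm2 at 255 and 18.2 CPM, and of 11 histone genes 9 fell. Of 7 mature B cell genes compared 4 rose. Bank1, a B cell receptor adaptor, was at 27.7 and 171 CPM, Ltb, lymphotoxin beta, at 129 and 744 CPM and Cd55 at 60.8 and 210 CPM. Neutrophil genes, which these cells should lack, rose as well, with 8 of 15 specific and gelatinase granule genes (sums of 10697 and 20000 CPM), 6 of 8 mature neutrophil genes and all 3 stefin A genes compared. Il7r, the receptor for the growth factor of dividing pre-B cells, fell from 455 to 218 CPM. Bbc3 went from 5.28 to 57.9 CPM and Ccng1 from 48.3 to 174 CPM, but Cdkn1a was at 12.9 and 30.5 CPM, a smaller difference than in the progenitor gates.

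Mature lymphocytes are mostly resting. In mature B-like cells 60 of 3630 genes rose (1.65%) and 21 fell (0.579%). Ccng1 went from 33.5 to 162 CPM, Bbc3 from 2.05 to 39.7 CPM on 3 naive UMIs and Ifi27l2a from 383 to 889 CPM. Of 9 MHC class II genes 2 fell and their median was -0.74, with H2-Aa at 2482 and 1039 CPM, and Fosb fell from 164 to 10.2 CPM. In T cell-like cells 53 of 1236 genes rose (4.29%) and 18 fell (1.46%). Bcl2, which protects from cell death, went from 310 to 1366 CPM, the cytokine Tnfsf8 from 28.1 to 262 CPM and Socs1, which damps cytokine signals, from 49.1 to 239 CPM. The neutrophil genes Camp and Ngp, which T cells lack, fell from 7236 to 896 CPM and from 6833 to 1090 CPM in the same gate. The summed erythroid genes, which lymphocytes should lack, were at 6206 and 390 CPM in T cell-like and at 628 and 3090 CPM in NK cell-like cells. Their source was not tested. In NK cell-like cells 39 of 795 genes rose (4.91%) and 23 fell (2.89%). Of the 91 naive and 117 D2 cells of this gate, 41 and 44 met more than 1 gate. Bcl2 was at 249 and 638 CPM, and granzyme B (Gzmb) at 112 and 298 CPM. Mki67 went from 586 to 208 CPM and Hist1h1b from 518 to 43.8 CPM.

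The smallest gates hold few genes that could be compared. In plasma cell-like cells 20 of 384 genes rose (5.21%) and 8 fell (2.08%). Of the 32 naive and 42 D2 cells of this gate, 21 and 28 met more than 1 gate. Of 5 heat shock chaperone genes 3 rose, among them those of the secretory path, with Hspa5 at 531 and 1706 CPM and Hsp90b1 at 1086 and 3030 CPM, while Bax was at 47.4 and 29.6 CPM. In megakaryocyte-like cells 16 of 528 genes rose (3.03%) and 3 fell (0.568%). Of the 14 naive and 18 D2 cells of this gate, 10 and 17 met more than 1 gate. Here Bax went from 128 to 422 CPM and Cdkn1a from 1 to 138 UMIs. The marker Pf4, platelet factor 4, was at 16174 and 8502 CPM.

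A few genes differed in 1 direction in gates of nearly every lineage. Gm10076 rose in 17 of 17 gates, with log2 ratios from 2.92 to 3.82, Gm10260 in 16 of 16, from 1.39 to 2.72, and Ccng1 in 12 of 12, from 1.52 to 4.37, whereas Rpl36al fell in 13 of 15. Apart from Ccng1 these are genes with near-identical copies elsewhere in the genome, as are Hist1h2ap, Gstp1 and the stefin A genes, so their counts are uncertain. Across the 5 libraries Gm10076 stood at 66.0 CPM in naive, 603 CPM in D2 CTX and 48.5 CPM in D7 CTX BM, and at 1448 and 797 CPM in monocytes sorted from naive and CTX-treated mice. Hist1h2ap stood at 48.4, 189 and 41.6 CPM in the same BM libraries and at 3313 and 1975 CPM in the sorted monocytes. These levels did not follow the treatment, and the cause was not tested. Phlda3, by contrast, was high in the D2 library alone, at 40.0 CPM. Its levels in the other 4 libraries were from 0.210 to 1.56 CPM. Zmat3 and Ccng1 were at 27.4 and 209 CPM in D2 CTX BM and at most at 2.55 and 31.7 CPM elsewhere. Not all p53 targets differed in this way. Cdkn1a stood at 159 CPM in D2 CTX BM, but at 141 and 84.4 CPM in monocytes sorted from naive and CTX-treated mice. Bax stood at 225 CPM in D2 CTX BM and at 155 and 151 CPM in the sorted monocytes.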

How the data were processed

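Single cells of mouse BM were measured with 10x 3′ V3 reagents on an Illumina sequencer. Per the labels and the study's methods, the authors made the deposited UMI counts with Cell Ranger 3.1 on mm10 and handled them with Seurat 5.0; the annotation release is not given in the sources used here. The matrices are whole-number counts of 31053 genes per barcode, and the study states more cells than they hold. Counts of kept cells were summed per gene and gate and divided by the total to give CPM. With 1 library per group no test was run; sums have exact Poisson intervals, shares exact Clopper-Pearson intervals and log2 ratios exact conditional intervals, all 95%, which cover counting error only. Gates needed 3 markers (4 for erythroid, GMP and plasma cell), 1% of UMIs from markers for GMP and 0.5% for neutrophils. A cell that met several gates went to the one with the highest share of its markers. The limits of the gates were set after seeing the data, and members, markers and lists were chosen with earlier results of these data known. Named were the 10 highest and 10 lowest genes, 5 of each per gate, and list members; other genes named within gates were chosen after their values were seen. The steps were tested on simulated data. Python 3.11.15, NumPy 2.4.6, SciPy 1.17.1, pandas 2.3.3 and Scanpy 1.11.5 (Scrublet) were used. Other scalings, filters, thinning and doublet removal were tried as alternatives.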

Additional observations from a re-analysis of the deposited data

Results flagged for a closer look

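The same contrast went in opposite directions in different gates, and none of these differences was tested because each group has 1 library. Mitosis genes had a median log2 ratio of 0.86 in megakaryocyte-like cells, with all members compared above 0. They had medians of -0.78 in erythroid-like, -1.80 in pro-B and large pre-B-like, -3.19 in other B lineage-like and -1.31 in NK cell-like cells, with all members below 0. The megakaryocyte-like gate rests on 14 naive and 18 D2 cells, of which 10 and 17 met more than 1 gate. Their median UMIs were 12512 and 32641, and the part of these limits in the difference was not tested. Ribosome biogenesis genes had medians of 0.96 in erythroid-like and 0.75 in pro-B and large pre-B-like cells, with all members above 0, and of -0.13 in megakaryocyte-like cells, with all below 0.

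Some genes that rose over all cells were also high in the sorted monocyte libraries, which were not compared here. In monocytes sorted from naive and from CTX-treated mice Gm10076 stood at 1448 and 797 CPM, Gm10260 at 1048 and 939 CPM, Hist1h2ap at 3313 and 1975 CPM and Gstp1 at 81.0 and 45.7 CPM, each above its level of 66.0, 120, 48.4 and 3.82 CPM in naive BM.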

How the results depend on the processing

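No paired analysis was possible because each group is 1 pooled library. Over all cells 69 of 242 alternative values of counts and list medians moved and 173 did not, and none turned. Of the values of single genes over all cells 288 of 1036 moved. Gate shares moved in 96 of 236 alternatives and the ratios of these shares in 17 of 100. Scaling by the median of gene ratios left 211 genes higher, with medians of 1.30 for p53 targets, -1.16 for DNA replication and -0.95 for mitosis. The mean of the cells' CPM gave 322 genes lower, with medians of 0.99, -1.40 and -1.64 for the same lists. With no filter on low genes 4316 rose and 1825 fell. At 500 UMIs per cell 2 values turned, the log2 ratio of shares, stem and progenitor-like, to -1.11 and the log2 ratio of shares, other B lineage-like, to 0.002. Leaving out cells that met more than 1 gate turned Retnlg in stem and progenitor-like cells to 2.11, Prg2 in GMP-like cells to 1.95 and Jchain there to -0.16. Removing doublets turned Lcn2 to 0.17, Camp to 1.98 and Ngp to 1.86 in basophil-like cells. Within gates 1500 of 1740 values did not move. For these changes the cause was not tested. Gates of few or shallow cells, such as macrophage-like cells, were limited by depth.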
